A study of Mus musculus with 8 samples.

Results

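The genes described here are the keratins of the inner root sheath of the hair follicle, Krt25, Krt26, Krt27, Krt28, Krt71, Krt72 and Krt73, and Tchh, which encodes trichohyalin. They were chosen by gene symbol: each is the single symbol of 1 probe set in the platform annotation, which gave 8 probe sets of the 22206 tested. RNA of skin from the back of male mice of the inbred strain C3H was hybridised to Clariom S Mouse microarrays. Values are log2 signals as deposited, so that a difference of 1 is a doubling. There were 4 groups with 2 arrays each. Per the labels, all mice were 7 weeks old, were acclimatised for 7 days, were assigned at random to groups of 8, had the dorsal hair removed and received a topical application each day for 20 days. The control group received Milli-Q water. The treated groups received 1% minoxidil, a vasodilator used against hair loss, 1% tieghemelin or 1% maslinic acid, both taken here as plant triterpenes. The source field of minoxidil array 2 gives 2% and its description 1%. The titles of both control arrays name them as controls for tieghemelin and maslinic acid and do not name minoxidil. The labels do not say which mice, or how many, stand behind an array, so every p-value below measures the spread between arrays, which may be technical.

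The inner root sheath is a rigid tube of keratinocytes that surrounds the growing hair shaft and guides it towards the skin surface. Its cells build filaments from a type I keratin paired with a type II keratin, and trichohyalin, which is made in the same cells and in the medulla of the hair, joins these filaments once transglutaminases and peptidylarginine deiminases have modified it. The sheath is built only while a follicle grows, in anagen, and is lost as the follicle regresses, so its transcripts are commonly read as a sign of growing follicles. In bulk skin, fewer sheath cells and less RNA per cell cannot be told apart.

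Krt25, Krt26, Krt27 and Krt28 encode the type I (acidic) keratins of the sheath. In the RefSeq annotation of assembly GRCm38.p6 they lie next to each other on chromosome 11, between Krt24 and Krt10. Krt71, Krt72 and Krt73 encode the type II (basic) partners and lie together on chromosome 15 between Krt5 and Krt2, with the transcribed pseudogene Krt74 among them. Tchh lies on chromosome 3 between Rptn and Tchhl1, 2 genes of the same family of filament-associated proteins.

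The promoters are shown because the 4 type I genes share a motif there that the other 4 lack. All 8 genes matched the RefSeq promoter table of GRCm38.p6, and the 125 bases before the annotated start are printed 5′ to 3′ on the strand of the gene for the type I genes, for Krt71 as the most variable type II gene and for Tchh. Capitals mark matches to the motifs TATAAA and CCANTTANG on that strand.
Krt25, chr11:99322952-99323076, minus strand: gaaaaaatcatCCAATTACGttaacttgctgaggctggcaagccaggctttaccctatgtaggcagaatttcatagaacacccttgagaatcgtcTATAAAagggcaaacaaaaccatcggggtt
Krt26, chr11:99337966-99338090, minus strand: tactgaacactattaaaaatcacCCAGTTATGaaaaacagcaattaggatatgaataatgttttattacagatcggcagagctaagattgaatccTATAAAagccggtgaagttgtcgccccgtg
Krt27, chr11:99351119-99351243, minus strand: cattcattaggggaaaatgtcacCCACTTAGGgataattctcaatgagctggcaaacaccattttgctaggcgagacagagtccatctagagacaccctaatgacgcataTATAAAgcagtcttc
Krt28, chr11:99374904-99375028, minus strand: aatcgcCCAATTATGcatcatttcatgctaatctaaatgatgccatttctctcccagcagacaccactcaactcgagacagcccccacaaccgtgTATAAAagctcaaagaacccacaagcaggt
Krt71, chr15:101743098-101743222, minus strand: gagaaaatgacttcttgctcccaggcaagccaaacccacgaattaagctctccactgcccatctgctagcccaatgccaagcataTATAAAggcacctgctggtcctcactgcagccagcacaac
Tchh, chr3:93442205-93442329, plus strand: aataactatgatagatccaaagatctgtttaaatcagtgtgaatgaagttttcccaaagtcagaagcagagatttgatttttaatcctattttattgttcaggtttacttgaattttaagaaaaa

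CCANTTANG, in which N is any base, was chosen after these sequences had been seen and describes what the 4 type I promoters share. It starts 114 bases before the start of Krt25, 102 before that of Krt26, 102 before that of Krt27 and 119 before that of Krt28. Over windows of 300 bases (250 before to 50 after each start), 2.22% of 32851 promoters held it on either strand and 1.11% on the strand of the gene. TATAAA, the core of the TATA box, was held on the strand of the gene by 6 of the 8 genes and by 8.32% of all promoters. On either strand it was held by 7 of the 8 genes and by 13.6% of all promoters, and the window of Tchh had no match. AGATAA, a sequence bound by GATA factors, stood in 5 of the 8 windows on the strand of the gene (Krt25, Krt27, Krt71, Krt73 and Tchh) against 5.86% of all promoters, and 11.2% held it on either strand. All 5 matches lie further from the start than the printed stretches. CCANTTANG and TATAAA did not overlap in these windows, and these matches are descriptions of sequence only.

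**Figure D1:**
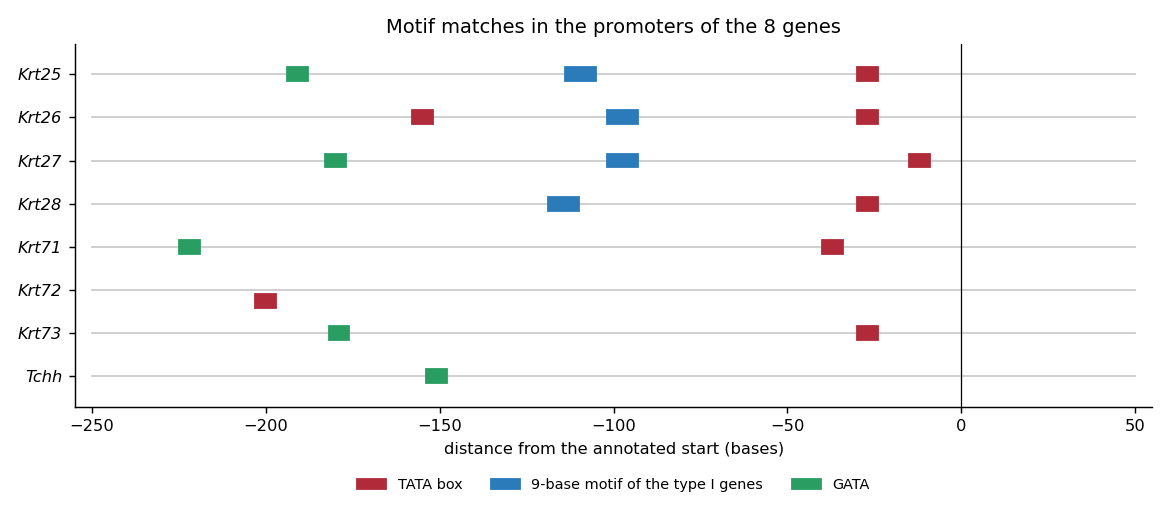
Positions of matches to TATAAA (red), CCANTTANG (blue) and AGATAA (green) in the promoter windows of the 8 genes, with distance from the annotated start in bases on the x axis and 1 gene per line. A box on the line is a match on the strand of the gene and the box below the line of Krt72 is on the opposite strand; the blue boxes appear in the 4 type I genes alone, 94 to 119 bases before the start.

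Over the whole platform, control array 1 was unlike the rest. Its Pearson correlation with the other 7 arrays was 0.518 to 0.538 across the tested probe sets, whereas those 7 correlated at 0.901 to 0.966 among themselves, and the SD of its log2 values was 1.32 against 1.62 to 1.69. Every comparison is therefore given with all 8 arrays and without control array 1, which leaves the control group with 1 array that is assumed to vary like the arrays of the other groups. As a yardstick for low signal, each value was set against the median of 23 antigenomic background probe sets of its array, which ranged from 6.96 to 7.75. It was 7.75 and 7.61 on the control arrays, 7.51 and 7.33 on the minoxidil arrays and 6.96 to 7.08 on the triterpene arrays. The same log2 value can thus be below background in 1 group and above it in another. Epidermal markers were present: of 8 measured genes of interfollicular epidermis, 5 or 6 were above that median on each array. Skeletal muscle markers also varied: the mean log2 value of 12 such genes was 12.37 and 14.20 on the control arrays, 10.97 and 10.36 on the minoxidil arrays, 8.95 and 8.51 on the tieghemelin arrays, and 11.80 and 9.08 on those of maslinic acid.

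**Figure D2:**
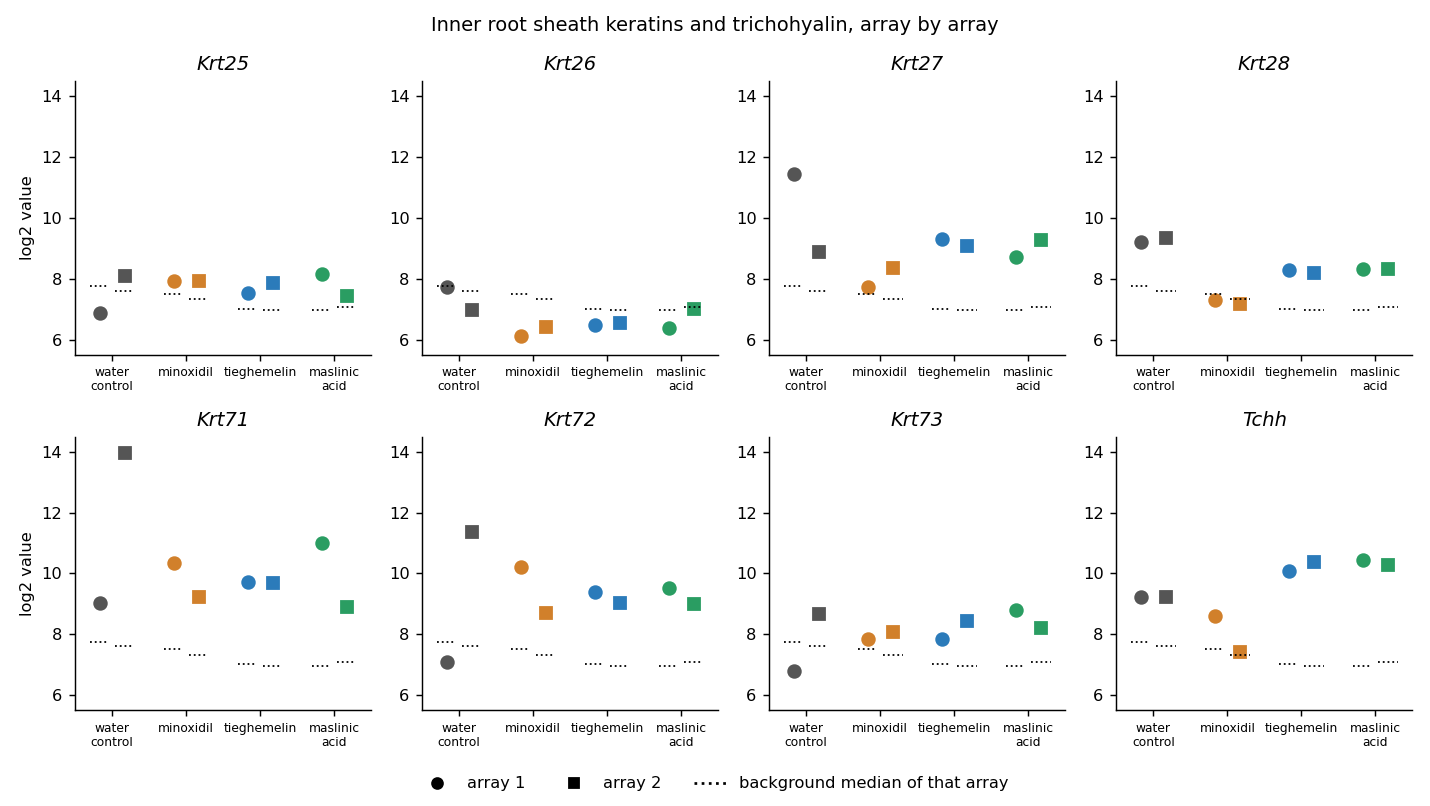
Log2 values of the 8 genes on each array (y axis), by group (x axis); circles are array 1 and squares array 2 of a group, and dotted lines are the background median of that array. The triterpene arrays of Tchh sit between 10.09 and 10.44, above both controls at 9.23 and 9.24 and both minoxidil arrays at 8.59 and 7.42, while Krt71 and Krt72 differ most between the control arrays.

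Tchh had the largest difference between the triterpene groups and minoxidil among the 8 genes. Trichohyalin is the granule protein of the sheath cells. Its log2 value was 9.23 and 9.24 on the control arrays, 8.59 and 7.42 with minoxidil, 10.09 and 10.39 with tieghemelin and, with maslinic acid, 10.44 and 10.27. All 4 triterpene arrays lay above both controls, and both controls lay above both minoxidil arrays. In order of the group means, maslinic acid (10.35 ± 0.12, SD, n = 2) and tieghemelin (10.24 ± 0.22, n = 2) overlapped, and control (9.24 ± 0.01, n = 2) and minoxidil (8.01 ± 0.82, n = 2) were separate from them and from each other. Ranked among all tested probe sets of its array, Tchh was at percentile 91.5 to 93.1 on the triterpene arrays, at 65.7 and 31.2 on the minoxidil arrays and at 84.3 and 80.3 on the controls.

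Krt28 was the type I keratin whose groups were most clearly separated. Its log2 value was 9.21 and 9.35 in controls, 7.30 and 7.18 with minoxidil, 8.30 and 8.18 with tieghemelin and, with maslinic acid, 8.31 and 8.32. No groups overlapped: controls were highest, the triterpene groups were between, and both minoxidil arrays were below the background median of their array. Both minoxidil values were above the lower background medians of the triterpene arrays, 6.96 to 7.08. The group means were 9.28 ± 0.10, 7.24 ± 0.09, 8.24 ± 0.09 and 8.32 ± 0.01 (SD, n = 2 each), so the gap between the triterpene groups, 0.08, was smaller than the SD within tieghemelin.

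Krt27, a type I partner that is abundant in the sheath, was above background on all 8 arrays. Its log2 value was 11.45 and 8.87 in controls, 7.73 and 8.34 with minoxidil, 9.32 and 9.08 with tieghemelin and, with maslinic acid, 8.71 and 9.28. Both minoxidil arrays were below the other 6, and control array 1 was above all others by more than 2 log2 units. The means were 10.16 ± 1.82 in controls, 9.20 ± 0.17 with tieghemelin, 8.99 ± 0.40 with maslinic acid and 8.03 ± 0.43 with minoxidil (SD, n = 2 each), and the first 3 of these overlapped.

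Krt25 and Krt26 were near or below background. Krt25, a type I keratin whose mutation gives wavy hair in mice, had log2 values of 6.88 and 8.09 in controls, 7.93 and 7.92 with minoxidil, 7.53 and 7.87 with tieghemelin and, with maslinic acid, 8.15 and 7.42. It was above the background median on 7 arrays, all but control array 1, and its 4 group means lay between 7.48 and 7.92. Krt26, a type I keratin of the sheath cuticle, was below that median on all 8 arrays, at 7.72 and 6.97 in controls, 6.11 and 6.40 with minoxidil, 6.49 and 6.56 with tieghemelin and, with maslinic acid, 6.38 and 7.02. No fold is given for Krt26.

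The type II keratins Krt71 and Krt72 differed more between the control arrays than between any treated groups. Krt71, a type II keratin made in all layers of the sheath, had log2 values of 9.03 and 13.97 in controls, 10.33 and 9.21 with minoxidil, 9.72 and 9.68 with tieghemelin and, with maslinic acid, 11.01 and 8.89. Its control arrays were 4.94 apart, which is 30.7-fold, and control array 2 was above every other array while control array 1 was below all but 1. Krt72, a type II keratin of the sheath cuticle, had 7.08, below background, and 11.36 in controls, 10.20 and 8.69 with minoxidil, 9.38 and 9.04 with tieghemelin and, with maslinic acid, 9.53 and 8.98. Its controls were the highest and the lowest of the 8 arrays, and the 3 treated groups overlapped each other.

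Krt73, the other cuticle type II keratin, had 6.79, below background, and 8.65 in controls, 7.83 and 8.06 with minoxidil, 7.86 and 8.45 with tieghemelin and, with maslinic acid, 8.81 and 8.22. The maslinic acid arrays were above both minoxidil arrays, and the other groups overlapped. The group means were 7.72 ± 1.31, 7.94 ± 0.16, 8.16 ± 0.41 and 8.51 ± 0.41 (SD, n = 2 each).

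The comparison of both triterpene groups together (4 arrays) with minoxidil (2 arrays) asked how the sheath genes stood under the plant compounds relative to the established drug. Tchh, Krt27 and Krt28 were higher with the triterpenes on every array, and the remaining 5 genes overlapped. At the study's own thresholds, a 1.7-fold difference or more at an unadjusted p no higher than 0.05, 2 of the 8 genes (Tchh and Krt28) were higher and 0 lower with all 8 arrays, where 2.36% of all probe sets were higher and 2.22% lower. Without control array 1, 3 of 8 were higher (Krt27 was added) and 0 lower, where 4.78% of all probe sets were higher and 5.35% lower. The separation on every array, seen for 3 of 8 genes, was found upwards for 12.6% of all probe sets and downwards for 15.3%. The median log2 difference of the 8 genes was 0.38 against -0.03 over all probe sets. It was 0.70 over the 4 type I keratins and 0.05 over the 3 type II keratins.

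Tchh was 4.89-fold higher with the triterpenes than with minoxidil, a log2 difference of 2.29 with an SE of 0.39 with all 8 arrays and a 95% interval of 1.40 to 3.18. One of the minoxidil values behind it, 7.42, was 0.09 above the background median of its array, 7.33. Control arrays do not enter this difference, only its error. The unadjusted limma p was 0.000337 with all 8 arrays and 3.45e-05 without control array 1. After Benjamini-Hochberg adjustment over all probe sets the limma p was 0.966 and 0.066, and over all alternatives it ranged from 0.066 to 1.0. Leaving out any 1 array gave differences of 1.71 to 2.87, and the study's thresholds were met each time.

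Krt28 was at least 1.81-fold higher with the triterpenes, a bound because both minoxidil arrays were below background. The measured log2 difference was 1.04 with an SE of 0.29, and its 95% interval was 0.38 to 1.71. The limma p was 0.00666 (adjusted 0.966) with all 8 arrays and 0.00143 (adjusted 0.108) without control array 1, and the adjusted p ranged from 0.108 to 1.0 over the alternatives. Krt27 was 2.09-fold higher, a log2 difference of 1.06, with minoxidil array 1 at 0.21 above its background median. Its SE was 0.65 with all 8 arrays and 0.29 without control array 1, and the limma p was 0.141 (adjusted 0.968) and 0.00417 (adjusted 0.138, range over the alternatives 0.138 to 1.0). Without control array 2 in its place, the p of Krt27 was likewise 0.00417, since the spread between the control arrays then leaves the fit.

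For the other 5 genes the 95% intervals without control array 1 included 0. The log2 difference was 0.39 for Krt73 (-0.25 to 1.04), 0.05 for Krt71 (-1.09 to 1.19), -0.18 for Krt25 (-0.81 to 0.45) and -0.21 for Krt72 (-1.09 to 0.66). A doubling thus lay within the interval of Krt71 and of Krt73, and a 2-fold lower value within that of Krt71 and of Krt72. Krt26 was below background in both groups. No gene of the 8 reached an adjusted p under 0.05 in this comparison. Over all probe sets, limma's adjusted count was 0 with all 8 arrays, where 1083 had an unadjusted p under 0.05, and 4 (0.018%) without control array 1.

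**Figure D3:**
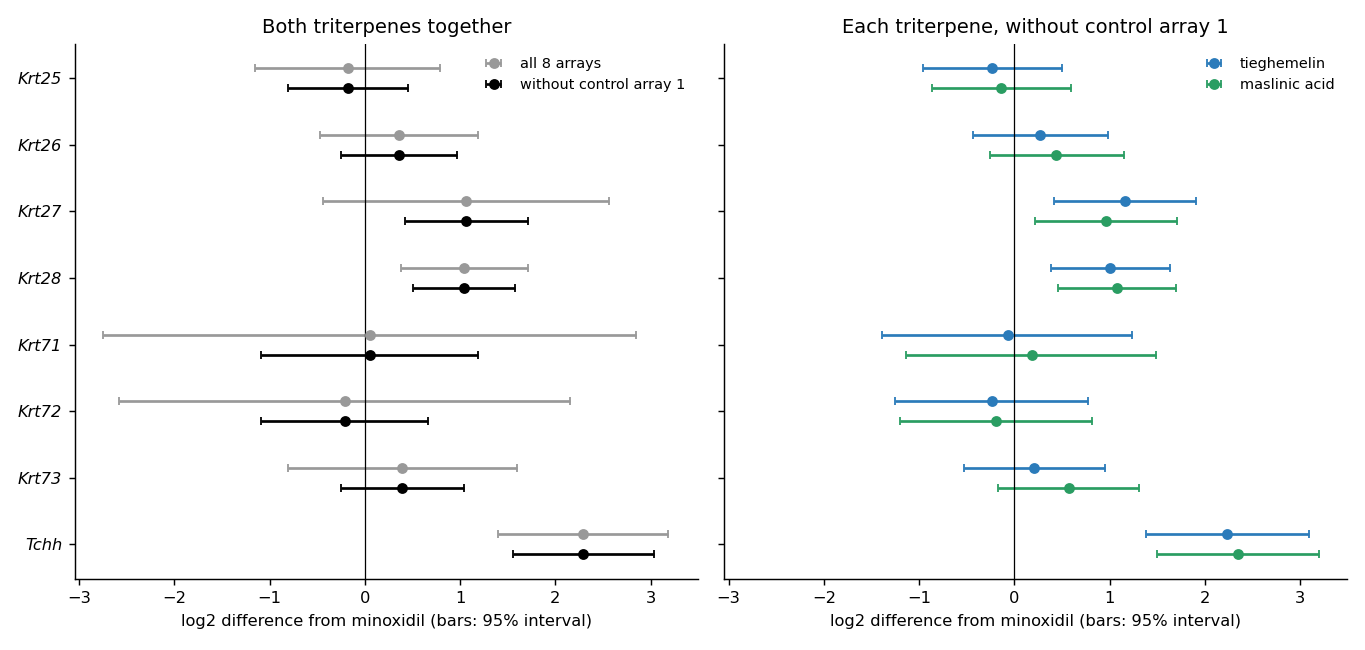
Log2 difference from minoxidil (x axis) with 95% intervals for each gene; left, both triterpenes together with all 8 arrays (grey) and without control array 1 (black); right, tieghemelin (blue) and maslinic acid (green) without control array 1. The interval of Tchh lies above 1 in every setting drawn, that of Krt28 above 0, and that of Krt27 includes 0 only with all 8 arrays.

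Tchh, Krt27 and Krt28 also had the largest differences of the 8 genes for each triterpene alone. Both compounds were set against the same minoxidil arrays, so these are not independent comparisons. With tieghemelin, Tchh was 4.70-fold higher than with minoxidil (log2 difference 2.23, 95% interval 1.38 to 3.09 without control array 1) and Krt27 2.24-fold (1.16, 0.42 to 1.91). Krt28 was at least 1.77-fold higher (1.00, 0.38 to 1.63). With all 8 arrays the 95% interval of Krt27 was -0.57 to 2.89 (limma p 0.16) and included 0. Those of Tchh and Krt28 were then 1.21 to 3.26 (limma p 0.00101) and 0.24 to 1.77 (limma p 0.0164). At the study's thresholds 2 of 8 genes were higher and 0 lower with all 8 arrays, where 1.77% of all probe sets were higher and 1.53% lower, and 3 were higher without control array 1, where 4.95% of probe sets were higher and 5.47% lower. Arrays did not overlap for 4 genes upwards (Krt26 below background among them) and for 1 downwards (Krt25), against 20.3% and 23.6% of all probe sets. The median of the 8 genes was 0.24. For Krt28 the unadjusted limma p rose to 0.0641 without minoxidil array 2, to 0.0883 without tieghemelin array 1 and to 0.0598 without tieghemelin array 2.

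With maslinic acid, Tchh was 5.09-fold higher than with minoxidil (2.35, 95% interval 1.5 to 3.20 without control array 1), Krt27 1.95-fold (0.96, 0.22 to 1.71) and Krt28 at least 1.86-fold (1.08, 0.46 to 1.70). The interval of Krt27 with all 8 arrays was -0.77 to 2.69 (limma p 0.236) and included 0. Those of Tchh and Krt28 were then 1.32 to 3.38 (limma p 0.000737) and 0.32 to 1.85 (limma p 0.0115). Again 2 of 8 genes were higher and 0 lower with all 8 arrays, where 1.95% of all probe sets were higher and 1.65% lower, and 3 were higher without control array 1, where 5.3% were higher and 5.79% lower. Arrays did not overlap for 4 genes upwards and 0 downwards, against 20.1% and 23.5% of all probe sets. The median of the 8 genes was 0.51. Krt73 was 0.57 higher with no overlap, and its interval of -0.17 to 1.31 included 0. The limma p of Krt28 rose to 0.0521 without maslinic acid array 1 and to 0.0537 without maslinic acid array 2. Limma's adjusted calls over all probe sets were 0 for both compounds in both settings, while 732 (tieghemelin) and 800 (maslinic acid) had an unadjusted p under 0.05 with all 8 arrays.

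Tieghemelin and maslinic acid were both labelled 1% and were compared for all 8 genes. No gene met the study's thresholds in either direction, where 0.306% of all probe sets did with all 8 arrays and 1.56% without control array 1. Tchh was 0.11 lower on the log2 scale with tieghemelin than with maslinic acid by means of 10.24 and 10.35, and the 95% interval of the difference without control array 1 was -0.97 to 0.74. The interval was -0.54 to 0.95 for Krt27 and -0.70 to 0.54 for Krt28. The Krt28 arrays did not overlap, but the nearest were at 8.30 (tieghemelin) and 8.31 (maslinic acid). Such a separation was seen for 3476 of 22206 probe sets upwards and 3309 downwards. For Krt73 the interval was -1.10 to 0.38, for Krt25 -0.82 to 0.64, for Krt72 -1.06 to 0.96 and for Krt71 -1.57 to 1.07. The limma adjusted p was 1.0 for each of the 8 genes, and differences near 2-fold for Tchh, Krt27, Krt71, Krt72 and Krt73 lie within or close to these intervals. With all 8 arrays the intervals were wider. A 2-fold difference in either direction then lay within those of Krt25 (-1.21 to 1.03), Krt27 (-1.53 to 1.93), Krt71, Krt72 and Krt73. Over all probe sets limma's adjusted calls were 0, with 68 at an unadjusted p under 0.05 with all 8 arrays.

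Against water, Krt28 and Tchh were lower with minoxidil. With all 8 arrays 4 of 8 genes met the study's thresholds downwards and 0 upwards (Krt26, Krt27, Krt28 and Tchh, of which Krt26 was below background), where 4.29% of all probe sets were lower and 6.98% higher. Without control array 1 there were again 4 lower and 0 higher, but these were Krt28, Krt71, Krt72 and Tchh, where 6.38% were lower and 6.53% higher. Krt28 and Tchh were thus the genes counted in both settings. Of the type I keratins, Krt25 was 0.44 higher with all 8 arrays and 0.16 lower without control array 1 and met the thresholds in neither setting, with group means of 7.92 and 7.48 in the first. With all 8 arrays, 4 of the 8 genes had both minoxidil arrays below both controls and 0 had them above, against 15.6% and 20.6% of all probe sets.

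Krt28 was at least 3.62-fold lower with minoxidil than with water with all 8 arrays (log2 difference -2.04, SE 0.33) and at least 3.80-fold lower without control array 1 (-2.11, SE 0.34). The limma p was 0.000267 (adjusted 0.44) and 9.05e-05 (adjusted 0.0914), and over the alternatives the adjusted p ranged from 0.00165 to 0.841. Tchh was 2.35-fold lower (-1.23, SE 0.45, limma p 0.0244, adjusted 0.44). Without minoxidil array 2, the lower of the pair, its difference was -0.65 and the limma p 0.182 (adjusted 0.726, range over the alternatives 0.063 to 0.841), and with the control and minoxidil groups compared alone the limma p was 0.0835. Krt27 was -2.13 with all 8 arrays and -0.84 without control array 1, where its limma p was 0.0672 (adjusted 0.418), since control array 1 held its highest value. The limma p of Krt27 was also above 0.05 without moderation (0.0911), with the groups compared alone (0.058) and without minoxidil array 1 (0.115).

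Krt28 was lower with either triterpene than with water, and Tchh was higher with maslinic acid, each at the study's thresholds with all 8 arrays. For Krt28 the log2 difference was -1.04 with tieghemelin (2.05-fold lower, limma p 0.0142, adjusted 0.41) and -0.96 with maslinic acid (1.94-fold lower, limma p 0.0202, adjusted 0.448). For Tchh it was 1.00 with tieghemelin (2.00-fold higher, limma p 0.0548, adjusted 0.431) and 1.12 with maslinic acid (2.17-fold higher, limma p 0.0367, adjusted 0.456). Without control array 1 these 4 differences were -1.11, -1.03, 1.00 and 1.11. The call of Tchh with maslinic acid was lost in 6 of 15 alternatives: the limma p was 0.0555 under quantile normalization, 0.0606 without moderation, 0.0601 with tieghemelin array 1 or 2 left out, 0.134 without maslinic acid array 1 and 0.0902 without array 2. The call of Krt28 was lost in 3 of 15 for each compound. With the groups compared alone its limma p was 0.054 for tieghemelin and 0.0745 for maslinic acid, without tieghemelin array 1 or 2 it was 0.0542 and 0.08, and without maslinic acid array 1 or 2 it was 0.0789 and 0.0766. For Tchh with tieghemelin the thresholds were met in 2 of 15, with minoxidil array 1 or 2 left out (limma p 0.0282 each time). For both genes the treated arrays did not overlap the controls. Such a separation was seen for 1 gene upwards and 2 downwards with tieghemelin (22.2% and 18.4% of all probe sets) and for 1 upwards and 1 downwards with maslinic acid (20.8% and 17.9%).

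The counts at the study's thresholds for tieghemelin were 1 lower and 0 higher of 8 with all 8 arrays, where 4.73% of all probe sets were lower and 7.02% higher, and 3 lower and 0 higher without control array 1, where 7.12% were lower and 6.63% higher. For maslinic acid they were 1 lower and 1 higher, where 4.45% were lower and 6.39% higher, and 3 lower and 1 higher without control array 1, where 6.57% were lower and 6.21% higher. Krt71 and Krt72 were the genes added downwards in both. The median of the 8 genes against water was -1.16 with minoxidil, -0.42 with tieghemelin and -0.31 with maslinic acid with all 8 arrays, and -1.04, -0.47 and -0.29 without control array 1. These 3 comparisons share the control arrays. With all 8 arrays, limma's adjusted calls over all probe sets were 0 in each of them, with 2502, 2609 and 2409 at an unadjusted p under 0.05.

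**Figure D4:**
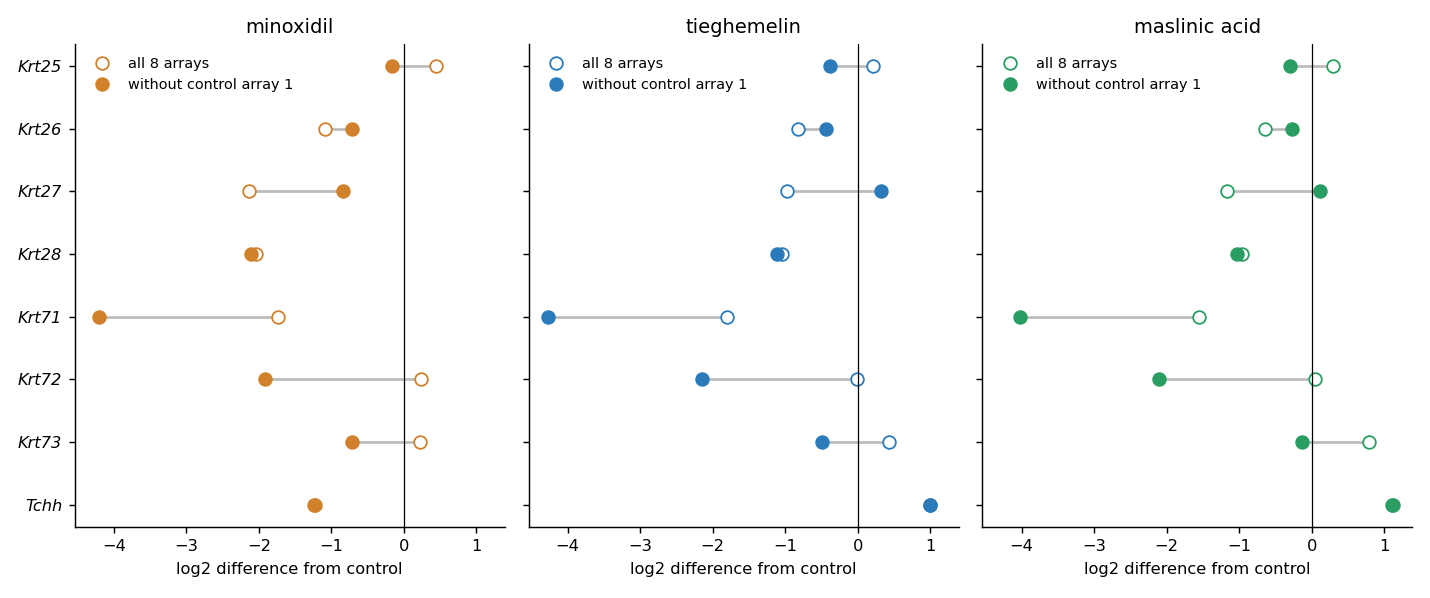
Log2 difference from water control (x axis) for each gene with minoxidil, tieghemelin and maslinic acid; open circles use all 8 arrays, filled circles leave out control array 1, and a grey line joins the pair. Krt28 and Tchh barely move between the settings, while Krt71 goes from -1.73, -1.80 and -1.55 to -4.20, -4.27 and -4.02.

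Krt71 depended on which control array was used. With all 8 arrays its log2 difference from water was -1.80 with tieghemelin (SE 1.40, limma adjusted p 0.568). Without control array 1 it was -4.27 (19.3-fold lower, SE 0.73, limma adjusted p 0.0435), the 1 adjusted call among the 8 genes in the 7 comparisons with all arrays or without control array 1. Over all probe sets 79 (0.356%) were called there, and 1 (0.0045%) against water for minoxidil and 1 (0.0045%) for maslinic acid. Without control array 2 it was 0.67 in the other direction (limma adjusted p 0.502). The call without control array 1 rests on 1 control value, 13.97. Over the alternatives its adjusted p ranged from 0.0132 to 0.866. With minoxidil and maslinic acid Krt71 was -4.20 and -4.02 without control array 1, with limma adjusted p of 0.096 (range 0.096 to 0.853) and 0.105 (range 0.105 to 0.956). With control array 1 as the only control, Krt27 differed from water by -3.42 with minoxidil, -2.26 with tieghemelin and -2.46 with maslinic acid (limma adjusted p 0.000197, 0.00212 and 0.00137), in a setting where 10508, 10549 and 10499 probe sets met the study's thresholds. In that setting Krt72 and Krt73, both below background on control array 1, were higher: Krt72 by 2.36, 2.13 and 2.17 (limma adjusted p 0.00798, 0.0131 and 0.012) and Krt73 by 1.15, 1.36 and 1.72 (limma adjusted p 0.0483, 0.0242 and 0.00838). Krt28 differed from water by -1.97 with minoxidil and -0.97 with tieghemelin (limma adjusted p 0.00165 and 0.0473), and Krt26, below background on every array, also had adjusted p under 0.05 with these compounds (0.014 and 0.0341). Over all alternatives the adjusted p of Krt27, Krt72 and Krt73 against water reached 0.841 to 0.999.

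The same control array was high for other genes. Krt5, the basal keratin gene beside Krt71, had log2 values of 10.09 and 13.72 in controls, 11.84 and 9.98 with minoxidil, 9.27 and 9.77 with tieghemelin and, with maslinic acid, 11.40 and 10.18. Its highest value was also on control array 2. The mean of the 12 skeletal muscle markers was highest there too, at 14.20. Without control array 1, the median log2 difference of these 12 markers from water was -3.43 with minoxidil, -5.51 with tieghemelin and -3.50 with maslinic acid. With all 8 arrays 7, 10 and 8 of 12 were lower at the study's thresholds and 0 higher. Of all probe sets 4.29%, 4.73% and 4.45% were lower there. Without control array 1, muscle markers thus moved the same way as Krt71 and Krt72, and their part in these differences was not tested.

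**Figure D5:**
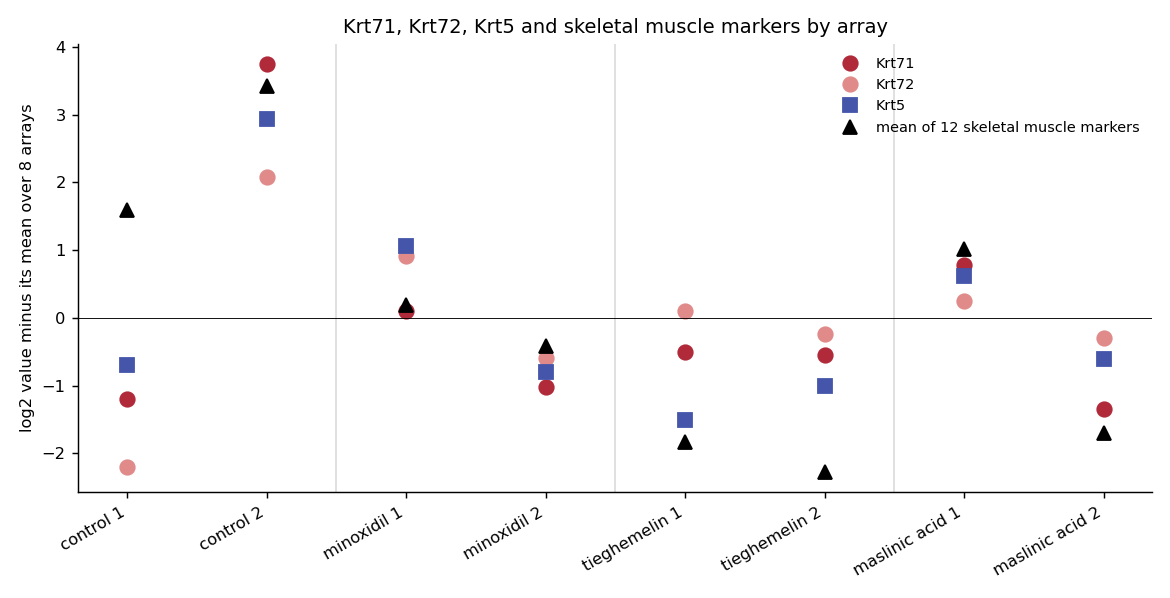
Log2 value of Krt71 (dark red), Krt72 (light red), Krt5 (blue squares) and the mean of 12 skeletal muscle markers (black triangles) on each array, each minus its own mean over the 8 arrays (y axis). All 4 have their highest value on control array 2, and on control array 1 the muscle mean is above its average while Krt71, Krt72 and Krt5 are below theirs.

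The muscle markers took a different order for the comparison with minoxidil. Their mean was 10.36 to 10.97 on the minoxidil arrays and 8.51 to 11.80 on the triterpene arrays. At the study's thresholds 0 of 12 were higher and 1 lower with all 8 arrays (4 lower without control array 1, median -1.24). Of all probe sets 2.22% and 5.35% were lower in these settings. For tieghemelin minus minoxidil, 6 of 12 were lower and 0 higher with all 8 arrays and 7 were lower without control array 1, with a median of -2.17. Of all probe sets 1.53% and 5.47% were lower there. For maslinic acid minus minoxidil 0 met the thresholds in either setting, with a median of -0.39. Most muscle markers were thus lower with tieghemelin than with minoxidil, the opposite direction to Tchh, Krt27 and Krt28, which were higher on both tieghemelin arrays. The part of muscle in those differences was not tested. On the maslinic acid arrays that mean was 11.80 and 9.08, while Tchh was at 10.44 and 10.27 and Krt28 at 8.31 and 8.32. The lists of 8 measured interfollicular epidermis genes and 10 measured outer root sheath and bulge genes had 0 at the thresholds with all 8 arrays. This held for each triterpene and for both together minus minoxidil. Their medians were -0.27 and -0.10 for both together and -0.36 and -0.18 for tieghemelin. Without control array 1, the thresholds were met downwards in both lists for tieghemelin, but in neither list for maslinic acid or for both together.

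Other genes of the inner root sheath and the companion layer, a list of 15 of which 14 were measured, had a median difference of 0.09 between the triterpenes and minoxidil. Of the 14, 8 were higher with the triterpenes. None of the 14 met the study's thresholds with all 8 arrays, and 2 were higher and 0 lower without control array 1. In the latter setting 4.78% of all probe sets were higher and 5.35% lower. Tgm1, a transglutaminase that cross-links envelope proteins, had log2 values of 8.37 and 8.47 with minoxidil, 9.48 and 9.68 with tieghemelin and, with maslinic acid, 9.26 and 8.98. All 4 triterpene arrays were above both minoxidil arrays, by 0.93 on the log2 scale (1.91-fold, limma p 0.0609 with all 8 arrays and 0.0037 without control array 1, adjusted 0.966 and 0.13). The other gene counted without control array 1 was Ctsl, a lysosomal protease needed for normal hair follicle cycling, by its measured difference of 0.91 (limma p 0.00981, adjusted 0.17). Both minoxidil arrays of Ctsl were below background, which bounds it at 1.17-fold higher or more. Cdsn, of the same list, went the other way without overlap and did not meet the thresholds. Its log2 values were 8.94 and 9.0 with minoxidil, 8.38 and 8.74 with tieghemelin and, with maslinic acid, 8.55 and 8.53. Tgm3, the transglutaminase most tied to trichohyalin, was between 9.0 and 9.51 on all 6 treated arrays. Padi3, which converts arginines of trichohyalin to citrulline, was above background on maslinic acid array 1 alone.

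Hair shaft keratins, a list of 16 of which 12 were measured, had a median difference of 0.30 from minoxidil, and 1 was higher and 0 lower at the study's thresholds in both settings. That gene was Krt40, a type I hair keratin, at 8.59 and 8.47 with minoxidil, 8.85 and 9.31 with tieghemelin and, with maslinic acid, 9.71 and 9.91. Its arrays did not overlap, and the difference was 0.91 (1.88-fold, limma p 0.0264, adjusted 0.966). Krt31, a type I keratin of the hair cortex, was 0.75 higher without overlap and its 1.68-fold difference was just under the threshold. Of 11 hair matrix and shaft regulators, 0 met the thresholds with all 8 arrays and 1 was higher without control array 1. That was Bmpr1a, a bone morphogenetic protein receptor needed for hair shaft and sheath differentiation, at 7.45 and 7.58 with minoxidil and 8.15 to 8.59 with the triterpenes. Its value on minoxidil array 1 was below the background median of 7.51, and that on array 2 was near the median of 7.33. Lef1, a Wnt effector of the hair matrix, had 7.52 and 7.37 with minoxidil, close to the background medians of 7.51 and 7.33. It was at 6.82 to 7.06 with the triterpenes, below background on each array, and did not meet the thresholds. No fold is given for Lef1. Beside these list counts, 2.36% of all probe sets were higher at the thresholds with all 8 arrays and 4.78% without control array 1.

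The neighbours of the 8 genes on the chromosomes did not meet the study's thresholds between the triterpenes and minoxidil. Krt24, beside Krt25, was 0.50 higher and Krt10, beside Krt28, was 0.48 lower by group means of 10.25 and 10.74. Krt5, beside Krt71, was 0.75 lower by means of 10.16 and 10.91, and Krt2, beside Krt73, was below background. On chromosome 3, Rptn was 0.52 and Tchhl1 0.26 higher than with minoxidil. Rptn had 9.88 and 7.97 with minoxidil and 9.05 to 9.72 with the triterpenes, and these groups overlapped.

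The 8 genes differed in which array held their highest value, such as control array 2 for Krt71 (13.97) and maslinic acid array 1 for Tchh (10.44). For each gene, all probe sets with 1 symbol were ranked by the root mean square difference of log2 values, each centred on its own mean, over the 7 arrays without control array 1. The nearest gene was another sheath keratin for none of the 8. With 19572 probe sets ranked, a sheath gene would seldom come first, so this does not decide whether the genes share a pattern. The number of probe sets nearer than the nearest sheath gene ranged from 57 for Krt71 to 4399 for Krt26. For Tchh the nearest were Micos13 (0.405), Mettl9 (0.414) and Cdca2 (0.42), and for Krt28 they were Trappc13 (0.179), Idh3b (0.179) and Ndufv1 (0.196). For Krt27 they were Htr1a (0.104), Oxct2b (0.131) and Fcsk (0.135). For Krt71 the nearest were Slc25a4 (0.492), Myh2 (0.494) and Casq1 (0.495), of which Myh2 and Casq1 encode skeletal muscle proteins, a fast myosin heavy chain and a calcium store protein. Its nearest sheath gene was Krt72, at 0.872. These distances describe 7 arrays, and those of low-signal genes such as Krt25 and Krt26 are small because their own values vary little.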

How the data were processed

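Gene expression was measured on 8 Clariom S Mouse arrays. Per the series' design text the authors normalised the scans in Transcriptome Analysis Console 4.0.1, and the submitters' processing notes also name Affymetrix Expression Console and RMA. The range of the deposited values was that of a log2 scale, and a genome build was not given in the sources used here. RMA usually includes a step that brings the arrays to a like distribution of signal, which can reduce changes in total signal; the deposited values still differed between arrays, with medians of 7.957 to 8.061 and SDs of 1.32 to 1.69. Genes were named from the platform annotation: of 22206 tested probe sets, 19572 had 1 symbol, all matched to RefSeq by gene ID, and 2634 had none. The 6640 control probe sets were left out of the tests.

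The model was limma's (version 3.58.1, R 4.3.3; 1 mean per group, contrasts, eBayes) on all 22206 probe sets, with Benjamini-Hochberg adjustment over all of them. All 8 arrays leave 4 residual degrees of freedom, and 7 arrays leave 3. With 2 arrays against 2 a permutation test cannot go below p = 0.33, so limma was used. The study's thresholds, 1.7-fold or more at an unadjusted p no higher than 0.05, were used as a call rule, and the study's own test was not given in the sources used here. Where no array of a group exceeded the median of the 23 background probe sets, the fold is a bound: each dim array counted at that median or, if higher, its own value. The number of arrays limits the precision.

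The 8 genes, the 17 gene lists (143 genes), the tests and the alternatives were chosen with earlier results of these data known. All 8 genes are named. Each list is given by its counts and median, with examples from the up to 4 genes of largest difference between the triterpenes and minoxidil, and Tgm3, Padi3 and the chromosomal neighbours were named after their values were seen. The fit was tested on simulated data. Alternatives were a replicate block, only probe sets above the median mean value, quantile normalization, a common median, other eBayes settings, no moderation, the groups compared alone and leaving out each array; for Krt71, a block and quantile normalization without control array 1 were added after seeing the data.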

Additional observations from a re-analysis of the deposited data

How the results depend on the processing

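Over the 8 genes in 7 comparisons, 732 of 828 recomputed differences kept their direction and their side of the study's thresholds. Another 39 changed direction, some of which also newly met the thresholds. Among those that kept their direction, 28 newly met the thresholds and 29 no longer met them. Several alternatives, such as other eBayes settings or leaving out an array of a group not compared, cannot change a difference. The share that stayed the same thus overstates stability. Changes of direction came from leaving out an array, except 1 under quantile normalization and 1 under a common median. The differences of Tchh and Krt28 between both triterpenes and minoxidil met the thresholds under all 15 alternatives. The replicate numbers did not pair the arrays (correlations of deviations between same-numbered arrays of -0.17 to 0.09), and a replicate block changed none of these calls, with the median of the 8 genes still 0.38 for both triterpenes minus minoxidil. The median moved to 0.72 for both triterpenes, 0.61 for tieghemelin and 0.77 for maslinic acid minus minoxidil among probe sets above the median mean value, which leaves out Krt25 and Krt26. Leaving out 1 array at a time gave medians of 0.29 to 0.58, 0.09 to 0.51 and 0.51 to 0.77 for these 3, of -1.38 to -0.24 (minoxidil), -0.48 to 0.74 (tieghemelin) and -0.31 to 0.91 (maslinic acid) minus control, and of -0.26 to -0.05 for tieghemelin minus maslinic acid. The highest values minus control came without control array 2.

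Krt72 minus control was 0.09 with tieghemelin under quantile normalization and -0.02 with maslinic acid after a shift to a common median. Single differences that changed direction when 1 array was left out ranged as follows. For both triterpenes minus minoxidil, Krt71 -0.51 to 0.61, Krt72 -0.97 to 0.55. For tieghemelin minus minoxidil, Krt71 -0.63 to 0.49, Krt72 -1.0 to 0.52, Krt73 -0.08 to 0.50. For maslinic acid minus minoxidil, Krt25 -0.50 to 0.23, Krt71 -0.89 to 1.24, Krt72 -0.95 to 0.57. For minoxidil minus control, Krt25 -0.16 to 1.04, Krt71 -4.20 to 0.74, Krt72 -1.91 to 2.36, Krt73 -0.71 to 1.15. For tieghemelin minus control, Krt25 -0.39 to 0.82, Krt27 -2.26 to 0.32, Krt71 -4.27 to 0.67, Krt72 -2.15 to 2.13, Krt73 -0.49 to 1.36. For maslinic acid minus control, Krt25 -0.30 to 0.90, Krt27 -2.46 to 0.12, Krt71 -4.02 to 0.92, Krt72 -2.10 to 2.17, Krt73 -0.13 to 1.72. For tieghemelin minus maslinic acid, Krt25 -0.45 to 0.28, Krt26 -0.49 to 0.15, Krt27 -0.08 to 0.49, Krt71 -1.31 to 0.81, Krt72 -0.32 to 0.22, Tchh -0.27 to 0.04. For Krt71 with tieghemelin against control, a replicate block without control array 1 gave -4.82 (limma adjusted p 0.0132) and quantile normalization without it -4.07 (limma adjusted p 0.0744). The count of probe sets at the study's thresholds was 1015 for both triterpenes minus minoxidil (417 to 2249 over the alternatives) and 944 under the block. It was 732 (223 to 2320), 800 (301 to 2463) and 68 (23 to 363) for tieghemelin minus minoxidil, maslinic acid minus minoxidil and tieghemelin minus maslinic acid, and 2502 (683 to 10508), 2609 (815 to 10549) and 2409 (773 to 10499) for minoxidil, tieghemelin and maslinic acid minus control, each highest without control array 2. The causes of these changes were not tested. Signal near background limits Krt25, Krt26 and Krt73, and on the minoxidil arrays Krt28 (both below it), Tchh (0.09 above it on array 2) and Krt27 (0.21 above it on array 1).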
